A study of Mus musculus with 6 samples.

Results

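Enzymes of asparagine, aspartate and glutamine metabolism were followed in 4T1 cells, a mouse mammary carcinoma cell line, by sequencing of messenger RNA. They were picked by symbol from the deposited table of read counts, as Asns and enzymes that make or use these 3 amino acids: Asns, Asrgl1, Got1, Got2, Glul, Glud1, Ass1, Cad and Adsl. All 9 of 9 symbols were found among the 23481 genes of the table. The cells, named 4T1_T in the title of that table, were grown in DMEM with non-essential amino acids, a supplement that contains asparagine and aspartate. Every group had been infected with a short hairpin RNA. Asns is the target of shAsns-1 and shAsns-2, and shRenilla, whose target luciferase is foreign to mouse cells, is the control. No uninfected cells were among the groups, and whether a group is 1 clone or a pool of infected cells is not given in the sources used here. The labels give 2 libraries, A and B, for each hairpin, but shAsns-1 B held no read at any gene, so 5 libraries were used. Separate cultures for A and B are not stated in the labels. The p-values thus rest only on the spread between these libraries, largely pooled over genes, which may be technical.

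Asparagine synthetase (Asns) moves the amide nitrogen of glutamine onto aspartate, and so joins the 3 amino acids in 1 reaction. Aspartate comes from oxaloacetate by transamination with glutamate, in the cytosol and in mitochondria, and is consumed in the synthesis of pyrimidines, purines and arginine as well as asparagine. Glutamine synthetase makes glutamine from glutamate, and glutamate dehydrogenase links glutamate to the citric acid cycle. When amino acids run short, the transcription factor ATF4 induces Asns through a C/EBP-ATF response element in its promoter.

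That element was looked for in the promoters of the members, because Asns was the member that differed most between the libraries. RefSeq promoters (GRCm38.p6, 250 bases before to 50 after the gene's start) were found for 9 of the 9 members. The motif searched was TGATGNAAN on both strands, where it reads NTTNCATCA on the other strand, with no other motif searched. It was present in 2 of the 9, Asns, where the element was known beforehand, and Got1. Of all 27025 genes with a promoter, 4.50% had a match, as did 3.95% of all 32851 promoter windows of this length. In Asns, at chr6:7693160-7693459 on the minus strand, the match TGATGAAAC begins at position -23 from the RefSeq start, on the strand of the gene. In Got1, at chr19:43524556-43524855 on the minus strand, the match TGATGCAAC lies on the opposite strand and its window begins at -103. Cad, at chr5:31054530-31054829 on the plus strand, had no match in this window and is shown as the member that differed next most. The sequences read 5′ to 3′ along the gene, and capitals mark the match.
Asns: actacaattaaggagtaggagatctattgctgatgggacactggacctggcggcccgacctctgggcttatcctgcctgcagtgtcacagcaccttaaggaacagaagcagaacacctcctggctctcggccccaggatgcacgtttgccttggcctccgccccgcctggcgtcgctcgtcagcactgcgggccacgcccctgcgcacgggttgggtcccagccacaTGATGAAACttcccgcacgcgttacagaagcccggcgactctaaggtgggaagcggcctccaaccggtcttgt
Got1: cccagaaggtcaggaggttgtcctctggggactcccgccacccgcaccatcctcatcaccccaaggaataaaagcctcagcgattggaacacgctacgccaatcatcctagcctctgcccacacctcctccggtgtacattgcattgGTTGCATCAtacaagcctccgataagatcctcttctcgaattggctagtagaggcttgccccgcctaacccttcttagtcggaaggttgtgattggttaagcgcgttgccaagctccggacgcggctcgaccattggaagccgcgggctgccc
Cad: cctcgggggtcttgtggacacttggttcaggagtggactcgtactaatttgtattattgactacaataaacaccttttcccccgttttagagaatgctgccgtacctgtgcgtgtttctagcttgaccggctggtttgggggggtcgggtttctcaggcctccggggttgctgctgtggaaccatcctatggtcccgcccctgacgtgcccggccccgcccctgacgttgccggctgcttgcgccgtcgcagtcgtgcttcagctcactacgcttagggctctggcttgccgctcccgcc
A match describes the letters and is not a measured binding site.

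Reads assigned to genes numbered 10244753 to 15955168 per library, so the floor of 3 reads lies between 0.188 and 0.293 CPM (reads per 1000000 gene reads). The 7 epithelial markers examined were all detected in each library, with a summed level of 1109 to 1155 CPM in shRenilla and shAsns-2 and 916 CPM in the library labelled shAsns-1. Chosen after their values were seen, Esrp1 and Krt14 were the markers furthest below. Esrp1 stood at 4.29 CPM in that library against 14.4 to 16.9 CPM in the other 4, and Krt14 at 2.83 against 11.8 to 13.2 CPM. Less far below were Krt7 (61.3 against 82.1 to 106 CPM), Epcam (33.6 against 53.5 to 63.7 CPM) and Cdh1 (299 against 393 to 432 CPM). Krt8 was slightly lower (206 against 213 to 223 CPM), and Krt18 lay within the range of the others (309 against 288 to 336 CPM). The part of these markers in the results was not tested. The 6 leukocyte markers in the table summed to 4.32 to 6.51 CPM, mostly Cd68, with Ptprc at 0.586 CPM or less and Lyz2 at 0. The 4 endothelial markers summed to 0.360 to 1.43 CPM and the 3 adipocyte markers to 0.683 CPM or less. The 5 fibroblast markers summed to 28.9 to 39.1 CPM, nearly all Pdgfra, with Lum at 0. The library labelled shAsns-1 stood apart: 1122 olfactory receptor genes summed to 41.5 CPM there and to 7.99 to 11.9 CPM in the other 4 libraries. Genes with at least 1 read numbered 17672 there and 15052 to 15392 in the other 4, although that library held the fewest gene reads. Across 8497 well-expressed genes, its log2 fold changes against shRenilla were lower for transcripts of higher GC content (Spearman -0.323 across genes, which are not independent; 0.0730 for shAsns-2). Asns was also higher in it than in shRenilla, which goes against the label, hence the wording the library labelled shAsns-1.

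Of the 9 genes, 8 had enough reads to be tested, and Ass1 had none. In shAsns-2 against shRenilla, 0 of the 8 passed edgeR's quasi-likelihood test at an adjusted p of 0.05, where 0.0642% of all 12457 genes tested did (8 genes, all higher). DESeq2 and limma-voom also called 0 of the 8. At an unadjusted p under 0.05, 2 of the 8 were lower (Asns and Adsl) and 0 higher, where 4.05% of all genes were lower and 5.59% higher (9.63% in all). In the library labelled shAsns-1 against shRenilla, Asns rose, Cad and Adsl fell, and 5 were not called, where 4.37% of all genes were called (2.31% higher, 2.06% lower). Between shAsns-2 and the library labelled shAsns-1, 2 of the 8 differed, Asns (lower in shAsns-2) and Cad (higher), where 2.14% of all genes did (0.811% lower, 1.33% higher). The median log2 fold change of the 8 was -0.04 in shAsns-2 and -0.06 in the library labelled shAsns-1, beside 0.00 and -0.01 over all genes tested. In bulk RNA, fewer cells of a kind and less RNA per cell cannot be told apart. Both contrasts share the shRenilla libraries. Where libraries are said below to lie above or below others, this is description only. With so few libraries such separation also arises without a difference, and the share of all genes so separated was not counted. With 1 library on its side, the library labelled shAsns-1 was taken to have the spread of the other groups.

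**Figure D1:**
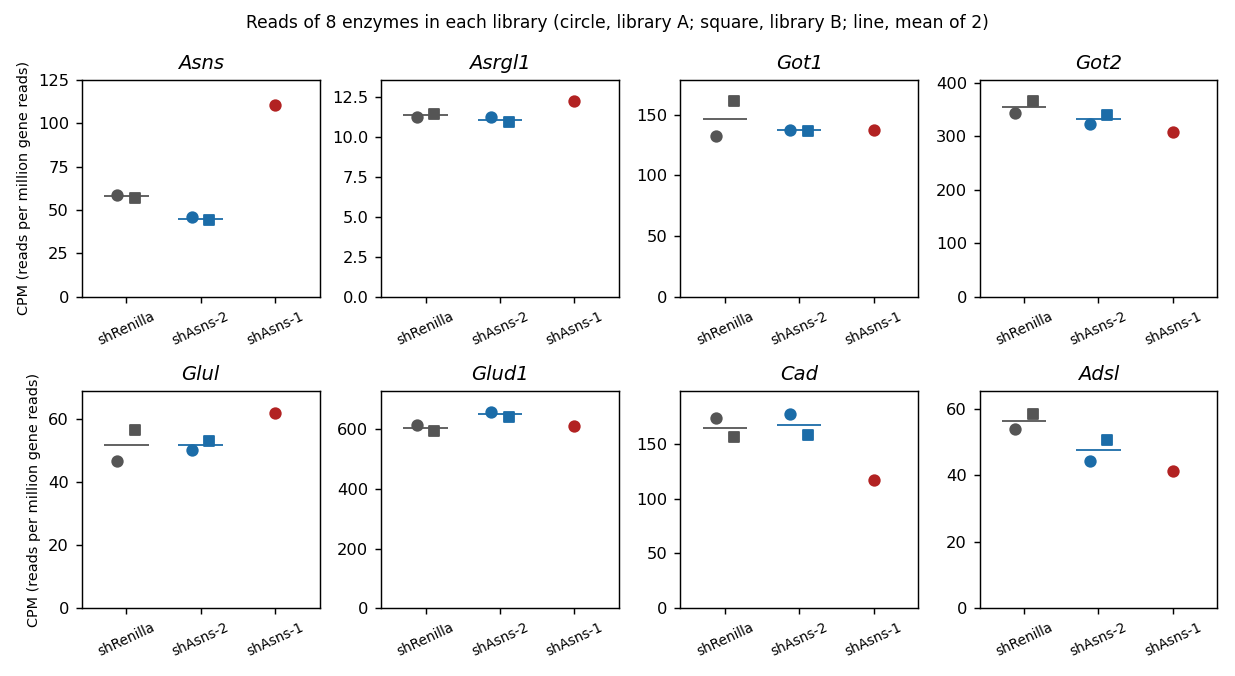
Reads of the 8 tested enzymes in each library. The vertical axis is CPM (reads per 1000000 gene reads) from 0, circles are library A, squares library B, and lines the mean of 2 libraries. Asns stands at 110.4 CPM in the library labelled shAsns-1, above the other 4 libraries, and Cad stands lowest there, at 118 CPM.

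Asns (ENSMUSG00000029752; GRCm38 chromosome 6, 7675169 to 7693254, minus strand) is, by the labels, the target of both shAsns hairpins. It stood at 58.7 (A) and 56.9 CPM (B) in shRenilla, at 45.7 (A) and 44.2 CPM (B) in shAsns-2, and at 110.4 CPM in the library labelled shAsns-1. Both shAsns-2 libraries lay below both shRenilla libraries, and the library labelled shAsns-1 lay above all 4. The level in shAsns-2 was 0.792-fold of shRenilla (log2 fold change -0.34, SE 0.0882, 95% interval of the fold 0.696 to 0.902, n = 2 each). By edgeR's quasi-likelihood test its unadjusted p was 0.00146 and its adjusted p 0.216, so the gene was not called. Its sign held under 11 of 11 alternative settings (-0.37 to -0.30). With the library letter as a replicate block, calls over all genes rose from 8 to 178. That was the only 1 of the settings under which Asns was called (edgeR adjusted p = 0.0388). In the library labelled shAsns-1 it was 1.89 times as high as in shRenilla (log2 fold change 0.92, SE 0.101; edgeR adjusted p = 6.27e-05), and called under 10 of 10 alternative settings, where it ranged from 0.89 to 0.95. The difference between shAsns-2 and that library, given here and for the other genes as shAsns-2 minus that library, was -1.26 (SE 0.103, adjusted p = 5.96e-06). All 10 alternative settings use the same library labelled shAsns-1, so they cannot show whether its Asns level would recur in another. With the GC trend removed, the value in the library labelled shAsns-1 was 0.93. The part of its olfactory receptor reads in that value was not tested.

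Asrgl1 (ENSMUSG00000024654; chromosome 19, 9109868 to 9135636, minus strand) encodes an asparaginase, which splits asparagine to aspartate and ammonia. It was the least abundant of the tested members, at 11.3 (A) and 11.5 CPM (B) in shRenilla, at 11.3 (A) and 10.9 CPM (B) in shAsns-2, and 12.3 CPM in the library labelled shAsns-1. All 5 libraries lay close together. The log2 fold change was -0.01 in shAsns-2 (95% interval -0.30 to 0.28, adjusted p = 0.987) and 0.10 in the library labelled shAsns-1 (-0.26 to 0.46, adjusted p = 0.805), both in edgeR's quasi-likelihood test. The direction in shAsns-2 was not stable, as it turned to 0.01 with the GC trend removed and to 0.02 without shAsns-2 B. At 118 to 180 reads per library, changes within these intervals were not detectable. The annotation places the start of Gm9750 across the 5′ end of Asrgl1 on the opposite strand, and without a stated strand setting reads of the overlap cannot be told apart.

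Got1 and Got2 encode the aspartate aminotransferases of the cytosol and of mitochondria. These exchange an amino group between glutamate and oxaloacetate and take part in the malate-aspartate shuttle. Got1 (ENSMUSG00000025190; chromosome 19, 43499752 to 43524605, minus strand) stood at 132 (A) and 161 CPM (B) in shRenilla, and at 137 CPM in each of the other 3 libraries. The 2 controls thus differed more from each other than the other libraries did, and the groups overlapped. Its log2 fold change was -0.07 in shAsns-2 (95% interval -0.26 to 0.12; adjusted p = 0.851) and -0.11 in the library labelled shAsns-1 (-0.35 to 0.13; adjusted p = 0.652), by edgeR's quasi-likelihood test. Without shRenilla B both values turned positive, to 0.07 and 0.03. Got2 (ENSMUSG00000031672; chromosome 8, 95864134 to 95888547, minus strand) stood at 344 (A) and 366 CPM (B) in shRenilla, at 324 (A) and 340.3 CPM (B) in shAsns-2, and 308 CPM in the library labelled shAsns-1. Both shAsns-2 libraries and the library labelled shAsns-1 lay below both controls, by little. The log2 fold change was -0.07 in shAsns-2 (95% interval -0.23 to 0.10; adjusted p = 0.814) and -0.22 in the library labelled shAsns-1 (-0.42 to -0.01; unadjusted p = 0.0402, adjusted p = 0.227; edgeR), and neither was called. Per kilobase of exon, Got2 was 1.18 to 1.37 times as abundant as Got1 across the 5 libraries, with the lowest ratio in the library labelled shAsns-1 and the highest in shRenilla A.

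Cad and Adsl use aspartate to build nucleotides. Cad (ENSMUSG00000013629; chromosome 5, 31054780 to 31078479, plus strand) encodes the protein that starts pyrimidine synthesis, with carbamoyl phosphate synthetase, aspartate transcarbamylase and dihydroorotase activities. It takes nitrogen from glutamine and joins the product to aspartate. Cad stood at 174 (A) and 156 CPM (B) in shRenilla, at 178 (A) and 158 CPM (B) in shAsns-2, and at 118 CPM in the library labelled shAsns-1. The shAsns-2 and shRenilla libraries overlapped, and the library labelled shAsns-1 lay below all 4. Cad fell there to 0.706-fold of shRenilla (log2 fold change -0.50, SE 0.113, 95% interval of the fold 0.598 to 0.833; edgeR adjusted p = 0.0185). In shAsns-2 its log2 fold change was 0.05 (SE 0.0887; edgeR adjusted p = 0.897). The difference between shAsns-2 and that library was 0.55 (SE 0.114; edgeR adjusted p = 0.0165). The call against shRenilla ended without shRenilla A (-0.41, adjusted p = 0.0756), and the call between shAsns-2 and that library ended when shAsns-2 A was left out (0.46, adjusted p = 0.264) or the GC trend removed (0.43, adjusted p = 0.0646). Cad had the highest transcript GC content of the 9 genes, 57.4%, and with the GC trend removed its value in the library labelled shAsns-1 was -0.41 (adjusted p = 0.0450; edgeR).

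Adsl (ENSMUSG00000022407; chromosome 15, 80948490 to 80970946, plus strand) encodes adenylosuccinate lyase, which releases fumarate from aspartate adducts at 2 steps of purine synthesis. It stood at 53.9 (A) and 58.5 CPM (B) in shRenilla, at 44.4 (A) and 50.6 CPM (B) in shAsns-2, and 41.4 CPM in the library labelled shAsns-1. Both shAsns-2 libraries and the library labelled shAsns-1 lay below both controls. Adsl fell in the library labelled shAsns-1 to 0.731-fold of shRenilla (log2 fold change -0.45, SE 0.121; edgeR adjusted p = 0.0443). That call was near its threshold and was lost in 8 of 10 alternative settings with its sign kept, among them leaving out any 1 of the other 4 libraries (-0.50 to -0.40, adjusted p 0.0663 to 0.0808), DESeq2 (adjusted p = 0.135) and the GC trend removed (-0.43, adjusted p = 0.0625). In shAsns-2 the log2 fold change was -0.21 (SE 0.0939; unadjusted p = 0.0400, adjusted p = 0.495; edgeR). Between shAsns-2 and that library the difference did not pass the threshold (0.24, 95% interval -0.02 to 0.50; edgeR adjusted p = 0.335).

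Ass1 (ENSMUSG00000076441; chromosome 2, 31470207 to 31520672, plus strand) encodes argininosuccinate synthase, which joins aspartate to citrulline on the way to arginine. It was listed at 0 reads in each of the 5 libraries, so it was not tested and no fold change is given. Its processed pseudogene Gm5424 was also listed at 0 in all 5. Asl, the lyase that follows Ass1, was detected at 17.0 to 20.6 CPM. A 0 in this table is not always a silent gene: Rpl26, a ribosomal protein, and Ndufs5, a subunit of respiratory complex I, which cells in general express, were listed at 0 in all 5 libraries too (both chosen after their values were seen). In all, 2104 of 18012 protein-coding genes other than olfactory and vomeronasal receptors were at 0 in every library.

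Glul and Glud1 stand on the glutamine and glutamate side. Glul (ENSMUSG00000026473; chromosome 1, 153899944 to 153909723, plus strand) encodes glutamine synthetase. It stood at 46.8 (A) and 56.7 CPM (B) in shRenilla, at 50.1 (A) and 53.3 CPM (B) in shAsns-2, and at 62.0 CPM in the library labelled shAsns-1. The shAsns-2 values lay between the 2 controls, and the library labelled shAsns-1 lay above all 4. The log2 fold change was 0.03 in shAsns-2 (95% interval -0.18 to 0.24; adjusted p = 0.945) and 0.25 in the library labelled shAsns-1 (-0.01 to 0.51; adjusted p = 0.266), neither called by edgeR's quasi-likelihood test. In shAsns-2 the sign turned without shRenilla A (-0.09) or shAsns-2 B (-0.01). In the library labelled shAsns-1 the value was 0.13 without shRenilla A (adjusted p = 0.530) and 0.39 without shRenilla B (adjusted p = 0.0527).

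Glud1 (ENSMUSG00000021794; chromosome 14, 34310727 to 34345265, plus strand) encodes the mitochondrial glutamate dehydrogenase. It stood at 616 (A) and 596 CPM (B) in shRenilla, at 659 (A) and 643 CPM (B) in shAsns-2, and 610.3 CPM in the library labelled shAsns-1. Both shAsns-2 libraries lay above the other 3. Its log2 fold change in shAsns-2 was 0.13 (95% interval -0.03 to 0.30; edgeR adjusted p = 0.603), so Glud1 was not called. The value was 0.00 in the library labelled shAsns-1 (95% interval -0.20 to 0.20; edgeR adjusted p = 0.993).

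**Figure D2:**
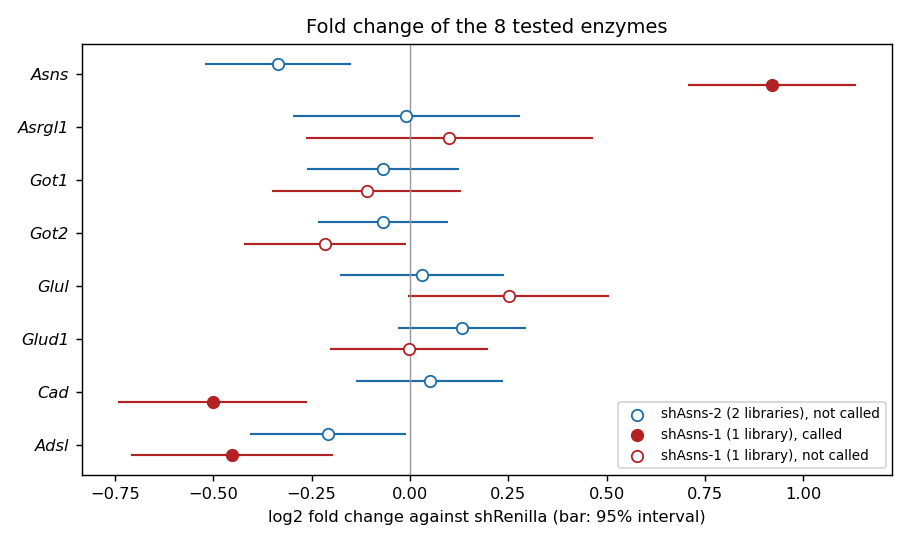
Log2 fold change of the 8 tested enzymes against shRenilla, with 95% intervals from the edgeR fit over all genes. Filled points passed an adjusted p of 0.05: Asns (0.92), Cad (-0.50) and Adsl (-0.45) in the library labelled shAsns-1, and none in shAsns-2.

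Levels of different genes were compared per kilobase of exon in GENCODE M21. In the mean of shRenilla A and B, Glud1 was the most abundant member at 144 ± 3.36 CPM per kilobase (SD, n = 2), above 98.6% of the 15132 genes detected with a known length. It was followed by Got2 at 73.6 ± 3.26 and Got1 at 57.8 ± 7.99 CPM per kilobase. These 3 enzymes thus stood well above the rest. Asns (21.1 ± 0.471) and Cad (20.2 ± 1.53) came next, and their control libraries overlapped, so their order was not resolved. Glul (15.6 ± 2.10), Adsl (9.98 ± 0.579) and Asrgl1 (2.65 ± 0.0325 CPM per kilobase, above 46.4% of genes) followed, each below the range of the one before. The order changed among Asns, Cad and Glul. In shAsns-2 Asns stood at 16.4 ± 0.396 CPM per kilobase, below both Cad libraries of that group, whose mean was 20.5 ± 1.67. Its level reached 40.4 CPM per kilobase in the library labelled shAsns-1, where Cad (14.4) lay below Glul (18.7), the reverse of their order in shRenilla. The ratio of Asns to the asparaginase Asrgl1, per kilobase, was 7.79 to 8.18 in shRenilla, 6.35 to 6.38 in shAsns-2 and 14.1 in the library labelled shAsns-1. Exon lengths are unions over all annotated isoforms, so levels are understated where the cells use short ones.

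**Figure D3:**
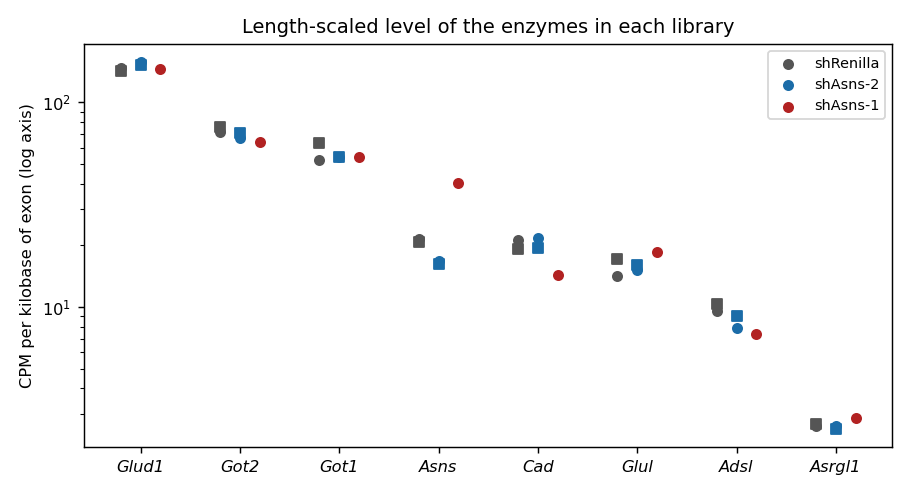
CPM per kilobase of exon on a log axis for the 8 detected members, ordered by their mean in shRenilla, with circles for library A and squares for library B. Glud1 leads at 144 CPM per kilobase in shRenilla, and Asns moves from 21.1 in shRenilla to 16.4 in shAsns-2 and 40.4 in the library labelled shAsns-1.

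Profiles over the 5 libraries were compared by the root mean square difference of mean-centred log2 CPM, as a description. Asns varied more than the other members, by 0.460 around its own mean. Of 8553 genes averaging at least 3 in log2 CPM, the 5 nearest to Asns were Mmp3, the metalloprotease stromelysin-1 (0.180), the neuronal enolase Eno2 (0.187), Lyrm5 (0.190), Mr1, an MHC class I-related protein (0.200), and Arhgef39 (0.214). All 5 were also highest in the library labelled shAsns-1, which follows largely from choosing them by likeness to Asns. Their log2 fold changes there against shRenilla ranged from 0.41 for Arhgef39 to 1.15 for Mmp3. Mmp3 there stood at 130.3 CPM against 51.8 to 61.7 CPM in the other libraries. Only Arhgef39 had a log2 fold change in shAsns-2 near that of Asns (-0.31, edgeR adjusted p = 0.563), while Mmp3 had -0.01. Among the members, no profile was close to that of Asns: the nearest, Glul, was at 0.393. Got1 and Got2 were nearest to each other (0.0784), and Adsl (0.0995) and Cad (0.183) were both nearest to Got2.

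The other genes of the pathway were taken from a list of 71, of which 55 had enough reads to be tested. In shAsns-2 against shRenilla, 0 of 55 were called by edgeR, DESeq2 or limma-voom, and 5 were lower and 0 higher at an unadjusted p under 0.05, where 0.0642% of all genes were called by edgeR and 4.05% were lower and 5.59% higher at that unadjusted p. Their median log2 fold change was -0.05, against 0.00 over all genes. Against shRenilla, 0 of 55 were called in the library labelled shAsns-1 by the same 3 tools, with 4 higher and 7 lower at an unadjusted p under 0.05, where 10.0% of all genes were higher and 9.54% lower (19.6% in all). The median there was -0.04, against -0.01 over all genes. Between shAsns-2 and that library 0 of 55 were called, with 6 higher and 5 lower in shAsns-2 at an unadjusted p under 0.05, where 8.87% and 7.89% of all genes were (16.8% in all).

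Other genes of asparagine, 6 tested of 7, had medians of -0.13 in shAsns-2 and 0.01 in the library labelled shAsns-1. Nars2, the mitochondrial asparaginyl-tRNA synthetase, had -0.22 (edgeR adjusted p = 0.516) and Nit2, an omega-amidase, -0.22 (adjusted p = 0.637) in shAsns-2. Nars, the cytosolic synthetase that loads asparagine onto its tRNA, had -0.24 in the library labelled shAsns-1 (edgeR adjusted p = 0.213). Asnsd1, a gene with an asparagine synthetase-like domain, had 0.17 there (edgeR adjusted p = 0.402). Between shAsns-2 and that library these last 2 had 0.24 for Nars and -0.30 for Asnsd1 (edgeR adjusted p = 0.250 and 0.163). None of the 6 was called.

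Of 18 other genes of aspartate, 14 were tested, with medians of -0.01 in shAsns-2 and 0.05 in the library labelled shAsns-1. Adss, which adds aspartate to inosine monophosphate in the step before Adsl, had the smallest p there. It stood at 570 CPM in the library labelled shAsns-1 against 422 to 499 CPM in the others, with a log2 fold change of 0.36 (SE 0.105, edgeR adjusted p = 0.0604). Atic, the enzyme of the last 2 steps to inosine monophosphate, had -0.30 in that library (edgeR adjusted p = 0.0930) and 0.31 between shAsns-2 and that library (adjusted p = 0.118). Paics, the purine enzyme that attaches aspartate, stood at 968 CPM there against 796 to 895 CPM in the other 4 libraries, with 0.25 (edgeR adjusted p = 0.135). Thus Adss and Paics lay on the higher side and Adsl and Atic on the lower, with only Adsl past the threshold, a call lost in 8 of 10 alternative settings. Mdh1, the cytosolic malate dehydrogenase of the malate-aspartate shuttle, differed between shAsns-2 and that library by -0.38 (edgeR adjusted p = 0.0694), not past the threshold. In shAsns-2 the smallest p-values belonged to Slc25a13, a mitochondrial aspartate-glutamate carrier (-0.28, edgeR adjusted p = 0.409), and Paics (0.16, adjusted p = 0.520).

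Of 30 other genes of glutamine and glutamate, 25 were tested, with medians of -0.09 in shAsns-2 and -0.06 in the library labelled shAsns-1, and 0 called in either. Ctps, which makes CTP with the nitrogen of glutamine, had -0.30 in that library (edgeR adjusted p = 0.122), and Oat, ornithine aminotransferase, had 0.32 (adjusted p = 0.144). Oat differed between shAsns-2 and that library by -0.27 (edgeR adjusted p = 0.265). Gclm, the modifier subunit of the enzyme that joins glutamate to cysteine, had -0.27 in shAsns-2 and -0.30 between shAsns-2 and that library (edgeR adjusted p = 0.412 and 0.244). Gls2, which encodes an enzyme of glutamine breakdown, had -0.46 in shAsns-2 (SE 0.209, edgeR adjusted p = 0.497).

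Of 16 carriers of these amino acids, 10 were tested. Their median was 0.00 in shAsns-2 and -0.24 in the library labelled shAsns-1, where 3 were lower at an unadjusted p under 0.05 and 0 were called, against 9.54% lower at that p and 4.37% called over all genes. Slc1a5, the main glutamine carrier of many tumour cells, stood at 84.4 CPM in that library against 97.8 to 111 CPM in the other 4 (log2 fold change -0.33, edgeR adjusted p = 0.0985). Slc38a1, another glutamine carrier, had -0.29 (edgeR adjusted p = 0.101). Slc7a11, which exports glutamate for cystine, stood at 38.0 CPM in that library, at 50.8 (A) and 51.3 CPM (B) in shAsns-2, and at 47.7 (A) and 43.3 CPM (B) in shRenilla. Its difference between shAsns-2 and that library was 0.47 (SE 0.121, edgeR adjusted p = 0.0549), just short of the threshold, and its value in shAsns-2 against shRenilla was 0.19 (adjusted p = 0.520). Slc1a5 differed between shAsns-2 and that library by 0.34 (edgeR adjusted p = 0.124), and Slc38a2, a carrier that ATF4 induces, had 0.16 in shAsns-2 (adjusted p = 0.531).

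Because Asns is a target of ATF4, 16 other genes of the amino acid response were read beside it, all of them tested. In shAsns-2, where Asns was 0.792-fold of the control, their median was 0.15, against 0.00 over all genes. By edgeR, DESeq2 and limma-voom 0 were called, and 3 were higher and 0 lower at an unadjusted p under 0.05, where 5.59% of all genes were higher and 4.05% lower (0.0642% called by edgeR). Chac1, a glutathione-degrading enzyme, stood at 26.1 (A) and 22.8 CPM (B) in shAsns-2, at 15.4 (A) and 16.6 CPM (B) in shRenilla, and 13.8 CPM in the library labelled shAsns-1. It was thus highest in both shAsns-2 libraries. Its log2 fold change in shAsns-2 against shRenilla was 0.64 (edgeR adjusted p = 0.0642), and Ddit4 had 0.69 (adjusted p = 0.0674). Chac1 was higher in shAsns-2 than in the library labelled shAsns-1 by 0.86 (SE 0.162, edgeR adjusted p = 0.00922). It was the only 1 of the 16 called between them, where 2.14% of all genes were (1.33% higher). The call ended when shAsns-2 A was left out (0.76).

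The median of the 16 genes was -0.16 in the library labelled shAsns-1, whose Asns level was 1.89-fold of the control. Single genes ranged from -0.55 to 1.25 there. At an unadjusted edgeR p under 0.05, 2 were higher and 3 lower, where 10.0% of all genes were higher and 9.54% lower. Slc3a2, the heavy chain shared by several amino acid exchangers, fell from 132 (A) and 151 CPM (B) in shRenilla to 105 CPM. Its log2 fold change was -0.43 (SE 0.110, edgeR adjusted p = 0.0336). It was the only call, with 15 not called, where 4.37% of all genes were called (2.06% lower). The call ended, with the log2 fold change at -0.43, without shAsns-2 A (adjusted p = 0.0899), without shAsns-2 B (0.0890) and in DESeq2 (0.0568). It also ended without shRenilla B (-0.34, adjusted p = 0.0553) and with the GC trend removed (-0.36, adjusted p = 0.0791). Atf4 itself stood at 215 to 238 CPM in all 5 libraries, with log2 fold changes of 0.13 and -0.01. Single genes of the 16 lay on both sides of the control in each comparison. Only by their median did the 16 lie opposite to Asns in both comparisons, which share the shRenilla libraries. No test of that pattern was made.

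**Figure D4:**
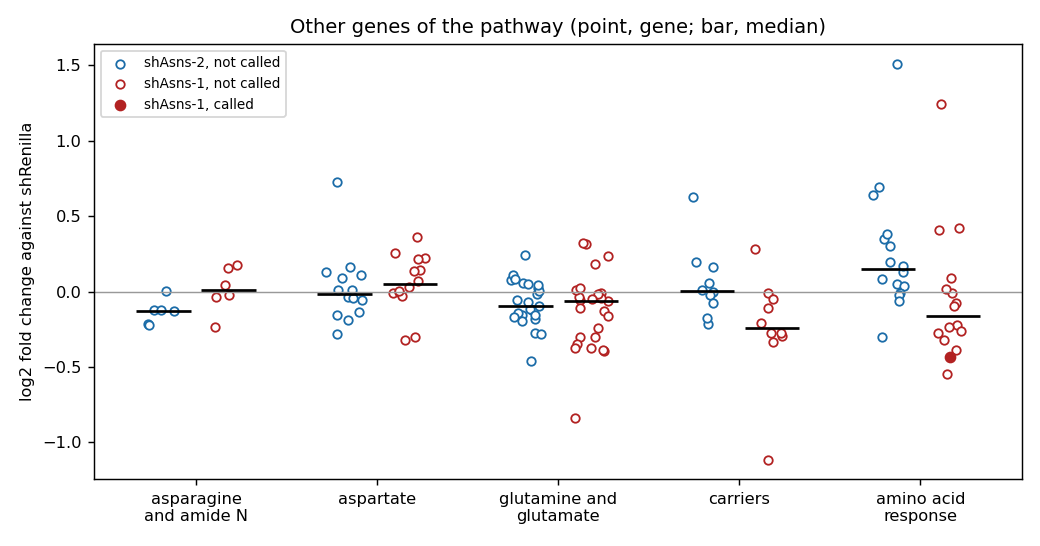
Log2 fold change against shRenilla of the other pathway genes, by list, for shAsns-2 and for the library labelled shAsns-1. Each point is a gene, bars are medians, and the filled point, Slc3a2 (-0.43), is the only 1 of these genes that passed an adjusted p of 0.05.

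**Figure D5:**
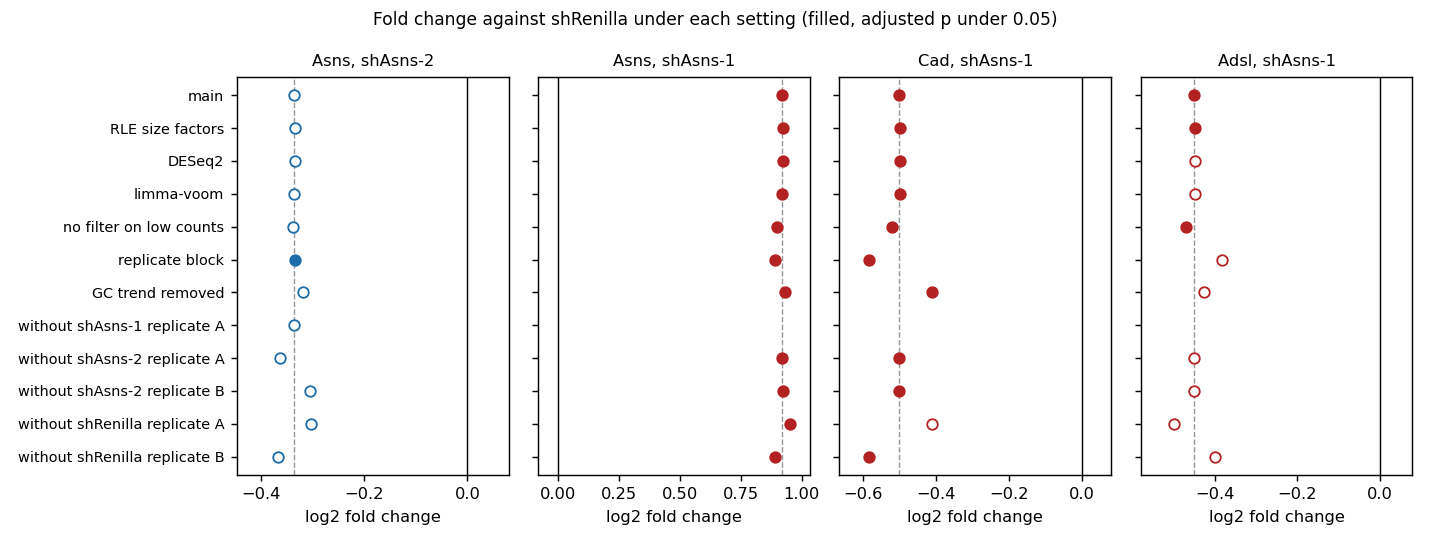
Log2 fold change of Asns, Cad and Adsl under the main setting and each alternative, 1 row per setting, filled where the adjusted p was under 0.05. Every value for the library labelled shAsns-1 rests on that 1 library. Asns in the library labelled shAsns-1 stays between 0.89 and 0.95 and filled throughout, Adsl there is filled in 2 of 10 alternatives, and Asns in shAsns-2 is filled only with the replicate block (-0.33).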

How the data were processed

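The deposited table held whole-number read counts per gene, made by the authors, for 6 libraries. RNA was extracted with Trizol and libraries were made with the Nugen Ovation kit, per the labels' protocols. Bowtie2, HTSeq and the build mm10 are named in the submitters' processing notes. The sources used here give no version, annotation or strand setting. An aligner without splicing may lose reads across exon junctions, and whether all libraries lose them alike was not tested. HTSeq's tallies stayed out: 36.1 to 38.3% of reads fell in no feature, 17.9 to 23.2% were unaligned and 0.584 to 0.626% were ambiguous. The largest unaligned share, 23.2%, was in the library labelled shAsns-1.

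The members and lists were chosen with earlier results of these data known. Counts of 5 libraries were fitted with edgeR 4.0.16 (R 4.3.3, limma 3.58.1): filterByExpr (12457 genes kept), TMM scaling, 1 quasi-likelihood fit over all groups with 2 residual degrees of freedom, Benjamini-Hochberg adjustment over all genes, called at an adjusted p under 0.05. The fit pulled each gene's spread towards that of genes at like levels, with a median of 14.7 prior degrees of freedom. Median SEs of the log2 fold changes were 0.112 in shAsns-2 and 0.142 in the library labelled shAsns-1. CPM are unscaled, and log2 CPM use a prior count of 2. Alternatives were DESeq2 1.42.0, limma-voom, size factors, no filter, the letter as a block, GC trend removed and each library left out. The fit was tested on simulated data. By rule, all members were named, with called genes of each list or else its 2 smallest p-values. Gene positions and lengths are from GENCODE M21, matched by symbol for 21911 of 23481 genes. GC content was known for 94.3% of genes tested.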

Additional observations from a re-analysis of the deposited data

Results flagged for a closer look

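Asns was flagged because its difference from shRenilla was not the same in shAsns-2 and in the library labelled shAsns-1: the difference of shAsns-2 from the library labelled shAsns-1 was -1.26 on the log2 scale (edgeR adjusted p = 5.96e-06), with both shAsns-2 libraries below shRenilla and the library labelled shAsns-1 above it, against its label. Cad was flagged for the same reason, with a difference of 0.55 (edgeR adjusted p = 0.0165), both shAsns-2 libraries lying above the library labelled shAsns-1. With 1 library on that side, hairpin label and library cannot be told apart.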

How the results depend on the processing

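Letters A and B are not stated to pair libraries, and across 8951 genes the deviations of the A libraries of shAsns-2 and shRenilla from their group means had a correlation of 0.0267, so no pairing was used. With the letter as a replicate block, in shAsns-2 Asns was called (-0.33, adjusted p = 0.0388), making 1 member, with 3 amino acid response genes and 178 of all genes against 8. The block gave 3 wider pathway genes and 924 of all genes (main 544) for the library labelled shAsns-1, and 5 wider, 2 response and 875 of all genes (main 267) between shAsns-2 and that library. In the same order, no filter on low counts gave 114, 919 and 608 of all genes, 0, 2 and 3 wider and 2, 1 and 3 response genes. DESeq2 gave, for the library labelled shAsns-1, 257 of all genes and 0 response genes, and 157 between the 2 shAsns labels. The GC trend removed gave 0 response genes in that library, and 160 of all genes, 1 member and 1 wider gene between the 2 shAsns labels.

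Leaving out 1 library gave 0 to 47 of all genes in shAsns-2 (0 without shAsns-2 A or shRenilla B, 47 without shRenilla A), 290 to 825 in the library labelled shAsns-1 (825 without shRenilla B) and 58 to 642 between the 2 shAsns labels (58 without shAsns-2 A, 642 without shRenilla B). Members called ranged from 1 (without shRenilla A) to 2 in the library labelled shAsns-1, against 3 with every library, and from 1 (without shAsns-2 A) to 2 between the 2 shAsns labels, wider genes from 0 to 1 and 0 to 4, and response genes from 0 to 1 and 0 to 3.

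Of the members' fold changes, 80 of 88 in shAsns-2, 66 of 80 in the library labelled shAsns-1 and 76 of 80 between the 2 shAsns labels kept direction and side of the threshold. Settings for the library labelled shAsns-1 all use that same library, so they do not show whether its values would recur in another. Uncalled values near 0 turned sign. With 1 library left out, values in shAsns-2 ranged from -0.0324 to 0.0190 for Asrgl1, -0.196 to 0.0695 for Got1, -0.0923 to 0.166 for Glul and -0.0383 to 0.139 for Cad, and in the library labelled shAsns-1 from -0.236 to 0.0291 for Got1 and -0.0332 to 0.0317 for Glud1. The GC trend removed turned Asrgl1 to 0.0090 in shAsns-2, Glud1 to 0.0181 in the library labelled shAsns-1 and Got1 to -0.0160 between the 2 shAsns labels. The block turned Got1 there to -0.0245. In the library labelled shAsns-1 against shRenilla, size factors and DESeq2 turned Glud1 to 0.0013. The cause was not tested.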
